A study of Saccharomyces cerevisiae with 4 samples.

Results

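Budding yeast genes of DNA repair, the damage checkpoint, replication and chromosome structure were examined in cells that met cadmium while making an active or a mutated bacterial metal pump. Genes were taken by name: a probe had to carry exactly 1 gene symbol of the array's annotation and a value on all 4 arrays, and the symbol had to join 1 of the stems RAD, REV, MSH, MLH, PMS, POL, RFA, RFC, MCM, ORC, APN, OGG, NTG, UNG, MAG, EXO, MRE, XRS, DPB, PRI, TOP, SGS, PHR, MEC, DUN, CTF or SMC to a number. Probes of a gene were averaged. This gave 58 genes from 62 probes, out of 3099 named genes and 5946 features in all, where a feature is a named gene or a probe without a single gene name. The R64 yeast annotation holds 117 symbols of this form, and the other 59 had no value under their own name and were not analysed here. Of the 58, 55 act on DNA or in its checkpoint, or are named after such a gene. The other 3 match the name rule but were classed under other roles. MCM1 encodes a transcription factor, MCM22 a kinetochore protein and EXO84 a subunit of the exocyst, which tethers secretory vesicles.

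Each array was hybridised with RNA of a pair of strains made from W303-1A, a laboratory strain. In the first, the yeast made CadA, a P-type ATPase from Listeria monocytogenes that transports cadmium. In the second it made the mutant D398A of that ATPase. The RNA of the pump itself was not examined here. Cells of both strains had grown at 30 °C to an OD600 of 0.4 in SD minimal medium with amino acids and adenine, and both then had 1 µM cadmium for 1 h, so a ratio compares cadmium-exposed cells with cadmium-exposed cells. The sources used here do not give the promoter or the number of clones behind each strain, nor whether each array had its own cultures. The p-values below therefore measure only the spread between arrays, which may be technical. The dye of CadA was Cy5 for arrays 1 and 3, and Cy3 for the swapped arrays 2 and 4.

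The numerator dye of the deposited log ratios is not stated, nor is whether the dye-swapped arrays were already turned to run the same way. Values per array are therefore given below exactly as deposited, on what is taken to be a log2 scale, and each gene has 2 means over the 4 arrays. In the turned mean the signs of arrays 1 and 3 were reversed, so that it compares strains if the table was left unturned. The deposited mean keeps all signs and compares strains if the table was already turned. In the other case each of them holds a dye effect in place of a strain difference. No strain is named for either side, because the numerator is unknown. The limma test was run on both means.

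Cells copy DNA in a fixed order of steps. The origin recognition complex (ORC) marks origins and the MCM ring is loaded there as helicase. Polymerase alpha with primase then starts each strand, and polymerases epsilon and delta extend it on the PCNA clamp, which the RFC complex loads. Repair enzymes remove damaged or mispaired bases, recombination mends breaks, and the Mec1 and Rad53 kinases hold the cell cycle and raise nucleotide supply when replication is disturbed. Cadmium is known from yeast and human work as an inhibitor of mismatch repair at the protein level, and several repair proteins hold zinc.

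No gene of the 58 passed the threshold, an adjusted p of 0.05 in limma with Benjamini-Hochberg adjustment over all 5946 features, under either reading. The share of all features called was 0% for both, and the smallest adjusted p among the 58 was 1.00 in turned signs and 0.42 in deposited signs. An unadjusted p below 0.05 was reached in turned signs by 1 of the 58, POL3, against 1.88% of all features (1.7% on the positive side, that of POL3, and 0.185% on the negative side). In deposited signs it was reached by 10 of the 58 (17.2%), against 11.7% of all features. Both shares lie near their backgrounds.

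The 58 genes also had nearly the same centre as the rest. The median of their turned means was 0.03, with 33 of 58 positive (56.9%), and that of all features was -0.01, with 47.4% positive and 52.6% negative. The median of their deposited means was -0.01, with 26 of 58 positive (44.8%), and that of all features was -0.03, with 46.5% positive and 53.5% negative. The typical size of a gene's mean, its median absolute value, was 0.15 in the 58 genes and 0.17 in all features in turned signs, and 0.32 in the 58 genes and 0.28 in all features in deposited signs. Arrays 1 and 2 spread more than arrays 3 and 4. The SDs of the 58 genes were 1.03, 1.07, 0.36 and 0.35 on arrays 1 to 4, and those of all features were 0.86, 0.95, 0.46 and 0.47, so a mean over 4 arrays leans on the first pair. In RNA of a whole culture, fewer cells in a phase of the cycle and less RNA per cell cannot be told apart.

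**Figure D1:**
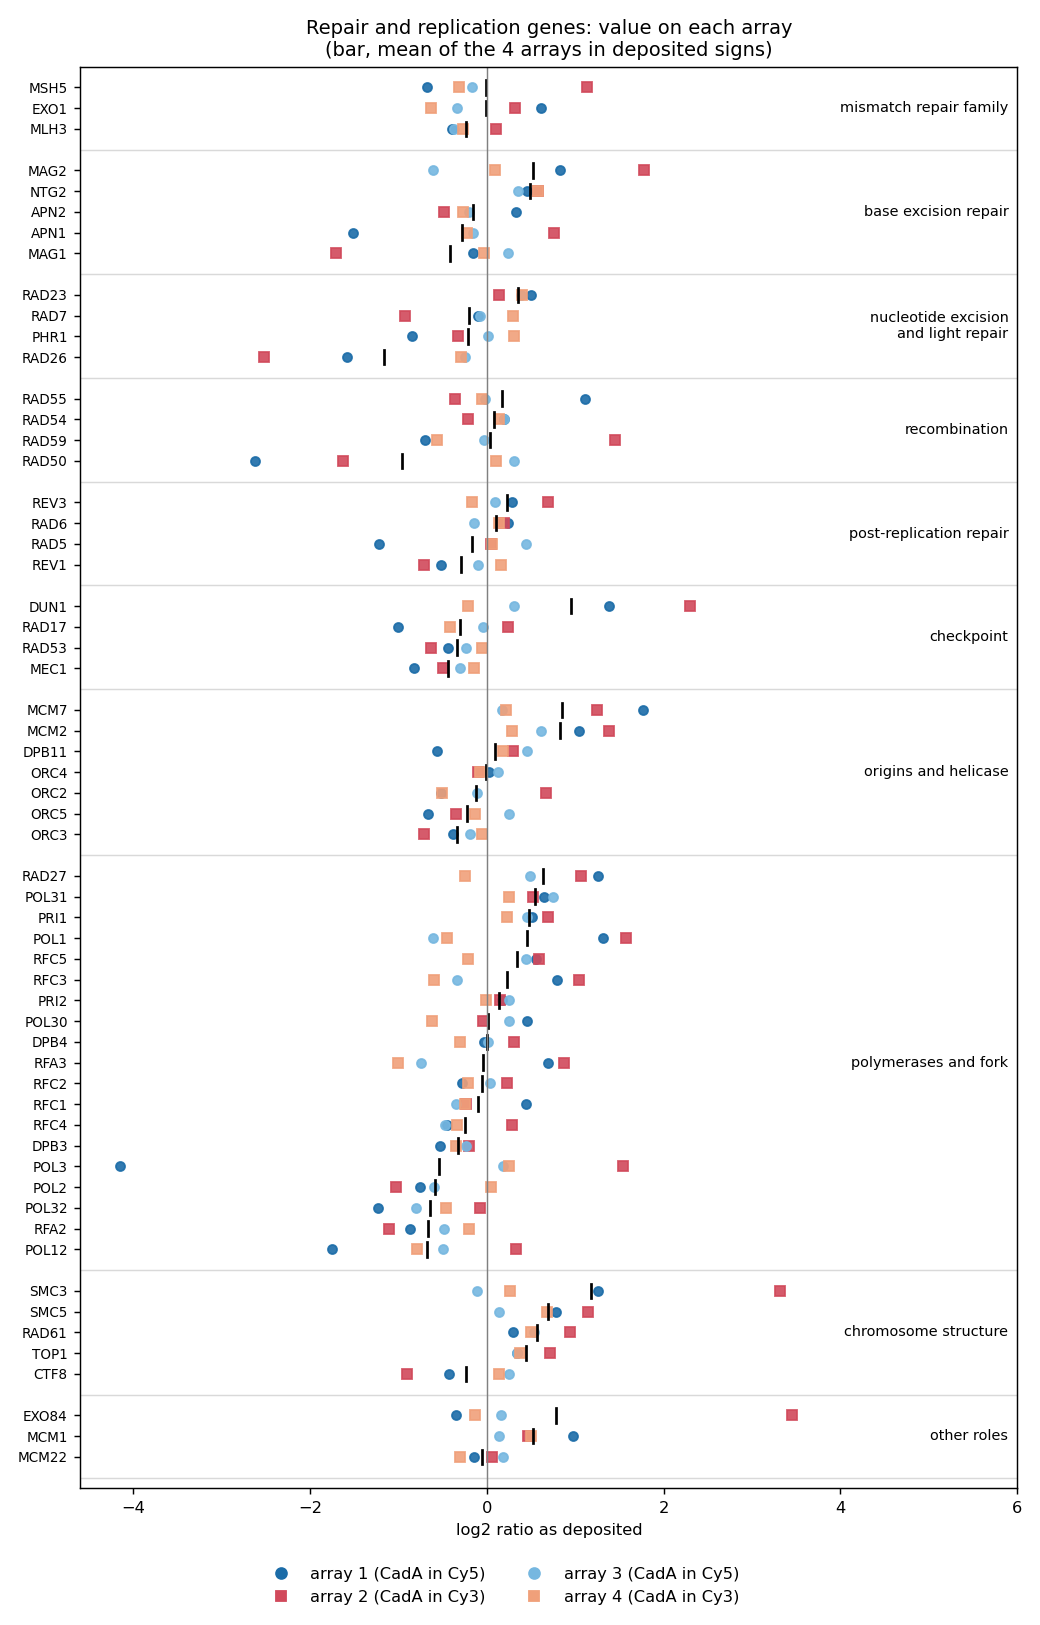
Deposited log2 ratio (horizontal axis) of each of the 58 genes on arrays 1 to 4, grouped by role, with a black bar at the mean of the 4 arrays. Circles are arrays with CadA in Cy5 and squares arrays with CadA in Cy3. The points farthest from 0 belong to arrays 1 and 2, such as POL3 at -4.16 on array 1 and EXO84 at 3.45 on array 2.

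The mismatch repair family, the group known as a cadmium target, was measured through 3 genes that stand at its edge. MSH5, a MutS relative that acts in meiotic crossing over, read -0.68, 1.13, -0.17 and -0.32 on arrays 1 to 4. Its turned mean was 0.42 ± 0.63 (SD, n = 4) and its deposited mean -0.009 ± 0.79. The turned mean was 0.18 without array 2, and 0.15 after the median of each print block of an array (a region of spots printed together) was set to 0, here called block centring. MLH3, a MutL relative of crossing over and loop repair, read -0.40, 0.10, -0.38 and -0.27, negative on 3 arrays, with a turned mean of 0.15 ± 0.31 and a deposited mean of -0.24 ± 0.23. EXO1, the exonuclease that removes the strand with the mismatch, read 0.61, 0.32, -0.34 and -0.64. It was positive on arrays 1 and 2 and negative on arrays 3 and 4, and both its means lay within 1 SD of 0, at -0.14 ± 0.55 turned and -0.01 ± 0.57 deposited.

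Base excision repair starts with a glycosylase that removes a damaged base and goes on with an endonuclease that cuts the bare site. NTG2, a glycosylase for oxidised pyrimidines, had the steadiest value of this class in deposited signs, but not in turned signs. It read 0.45, 0.58, 0.35 and 0.58, positive on every array in deposited signs, with a deposited mean of 0.49 ± 0.11 (1.40-fold, unadjusted p = 0.044, limma adjusted p = 0.42) and a turned mean of 0.09 ± 0.57. MAG1, the 3-methyladenine glycosylase, read -0.16, -1.71, 0.24 and -0.03 and had the lowest turned mean of all 58 genes, -0.46 ± 0.85. That mean rests on array 2, without which it was -0.04. The deposited mean of MAG1 was -0.42 ± 0.88, or 0.02 without array 2.

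The apurinic endonuclease genes lay on opposite sides of 0 in turned signs and both below 0 in deposited signs. APN1, for the main such enzyme, read -1.52, 0.76, -0.15 and -0.22, with a turned mean of 0.55 ± 0.76 that was positive on 3 arrays. It averaged 0.23 in turned signs without array 1, and its deposited mean was -0.28 ± 0.94, or 0.13 without array 1. APN2, for the second enzyme, read 0.32, -0.49, -0.20 and -0.27, with a turned mean of -0.22 ± 0.30 and a deposited mean of -0.16 ± 0.34. MAG2, which is named after MAG1, read 0.83, 1.77, -0.61 and 0.09, with a turned mean of 0.41 ± 1.08 and a deposited mean of 0.52 ± 1.02.

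Nucleotide excision repair removes bulky lesions such as those of ultraviolet light. RAD26, the ATPase of transcription-coupled repair, read -1.59, -2.53, -0.25 and -0.29. All 4 values were negative in deposited signs, and its deposited mean of -1.17 ± 1.10 (0.45-fold, unadjusted p = 0.022, limma adjusted p = 0.42) was the lowest of the 58 genes. It was -0.71 without array 2. In turned signs the values of RAD26 cancelled to -0.25 ± 1.71. RAD23, which helps to find lesions and also carries ubiquitinated proteins to the proteasome, read 0.50, 0.14, 0.39 and 0.40, positive on all 4 arrays, with a deposited mean of 0.36 ± 0.15. RAD7, of repair outside transcribed genes, had a turned mean of -0.11 ± 0.55 and a deposited mean of -0.20 ± 0.52. PHR1, the photolyase that reverses light damage directly, had a turned mean of 0.20 ± 0.50 and a deposited mean of -0.21 ± 0.50.

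Genes of recombination and break repair had widely scattered values on arrays 1 and 2. The SDs of these 4 genes were 1.59, 1.26, 0.17 and 0.32 on arrays 1 to 4, and those of all features were 0.86, 0.95, 0.46 and 0.47. RAD50, the ATPase of the complex that first binds broken ends, read -2.62, -1.63, 0.31 and 0.11, far below 0 on arrays 1 and 2 and above it on arrays 3 and 4. Its deposited mean was -0.96 ± 1.41 and its turned mean 0.20 ± 1.78, and without array 1 the deposited mean was -0.41. RAD55, of strand exchange in recombination, read 1.11, -0.36, -0.02 and -0.05, with the lowest turned mean of this class, -0.38 ± 0.52, which was -0.13 without array 1. RAD59, which anneals strands with Rad52, read -0.70, 1.44, -0.03 and -0.56 and had the highest, 0.40 ± 0.86, or 0.06 without array 2 and -0.082 after block centring. RAD54, a DNA translocase of recombination, lay near 0 with a turned mean of -0.12 ± 0.17 and a deposited mean of 0.07 ± 0.20.

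Post-replication repair lets the fork pass a lesion, either by switching template through ubiquitination of PCNA or with a mutagenic polymerase. Its 4 measured genes all had turned means above 0, as 47.4% of all features did. The means lay between 0.02 and 0.22, and none of them exceeded its own SD. RAD5, the ubiquitin ligase and helicase of template switching, averaged 0.22 ± 0.70 in turned signs with -1.22, 0.05, 0.44 and 0.05 as deposited values. RAD6, the ubiquitin-conjugating enzyme, averaged 0.06 ± 0.20. REV3, the catalytic subunit of polymerase zeta, averaged 0.04 ± 0.44, and REV1, its partner, 0.02 ± 0.52. In deposited signs RAD6 and REV3 were positive, at 0.10 ± 0.17 and 0.22 ± 0.36, and RAD5 and REV1 negative, at -0.17 ± 0.72 and -0.29 ± 0.39.

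The checkpoint genes MEC1 and RAD53 were below 0 on every array in deposited values, as 12.3% of all features were, with small means. MEC1, the sensor kinase related to human ATR, read -0.82, -0.49, -0.31 and -0.15, with a deposited mean of -0.44 ± 0.29. RAD53, the effector kinase below it, read -0.44, -0.63, -0.23 and -0.06, with a deposited mean of -0.34 ± 0.25. Neither passed the threshold (limma adjusted p = 0.45 for MEC1 and 0.51 for RAD53). After block centring, RAD53 was positive on 1 array and MEC1 still negative on all 4. In turned signs the means were 0.12 ± 0.57 for MEC1 and -0.0058 ± 0.47 for RAD53.

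DUN1, the kinase through which Rad53 relieves the restraint on ribonucleotide reductase, went the other way from them. It read 1.38, 2.30, 0.31 and -0.21, with a deposited mean of 0.95 ± 1.12 (1.93-fold, limma adjusted p = 0.43), or 0.49 without array 2. Its turned mean was 0.10 ± 1.56 and took either sign as single arrays were left out, from -0.63 without array 2 to 0.59 without array 1. RAD17, of the checkpoint clamp, read -1.004, 0.24, -0.04 and -0.41, with a turned mean of 0.22 ± 0.59 and a deposited mean of -0.30 ± 0.54.

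**Figure D2:**
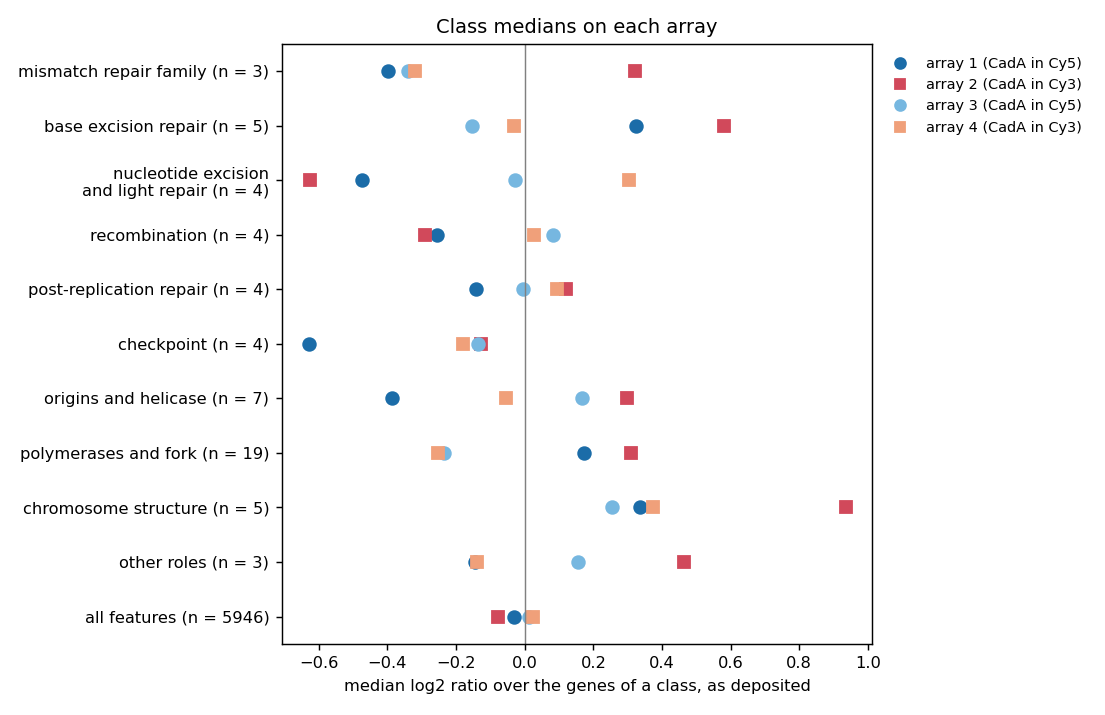
Median deposited log2 ratio (horizontal axis) over the genes of each role class on each of the 4 arrays, with all features, the 58 genes included, in the bottom row. Chromosome structure genes lay above 0 on each array, from 0.25 to 0.93, and checkpoint genes below 0 on each, from -0.63 to -0.13. All features stayed between -0.08 and 0.02.

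By class, medians of turned means ran from -0.10 for nucleotide excision and light repair to 0.15 for the mismatch family and for chromosome structure. Each was smaller than the SD between the medians of the 4 arrays, which was 0.34 for the mismatch family and 0.59 for chromosome structure. In deposited signs the checkpoint genes had a median of -0.32, with an SD of 0.24 between arrays. DUN1 was the exception among the 4 genes of that class.

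At origins, the measured genes for the helicase had deposited means above 0 and those for the origin recognition complex below it. Of all features, 46.5% lay above 0 and 53.5% below it. MCM2 read 1.04, 1.39, 0.61 and 0.28, with a deposited mean of 0.83 ± 0.48 (1.78-fold, unadjusted p = 0.012). MCM7 read 1.76, 1.24, 0.17 and 0.21, with a deposited mean of 0.85 ± 0.79 (1.80-fold, unadjusted p = 0.032), or 0.54 without array 1. Both helicase genes were positive on all 4 arrays, as 12.4% of all features were, and both had a limma adjusted p of 0.42. After block centring both were again positive on all 4 arrays, as 16.2% of all features were. MCM3, MCM4, MCM5 and MCM6, for the other subunits of the ring, had no value under their names. In turned signs the positive values on both dye orientations cancelled, to 0.0052 ± 1.07 for MCM2 and -0.12 ± 1.25 for MCM7.

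The 4 measured subunits of the origin recognition complex had deposited means below 0, as 53.5% of all features did. ORC3 was negative on all 4 arrays, at -0.39, -0.71, -0.19 and -0.05, with a deposited mean of -0.34 ± 0.29. ORC5 averaged -0.22 ± 0.38, ORC2 -0.12 ± 0.55 and ORC4 -0.0058 ± 0.10 in deposited signs. ORC4 was 1 of only 2 genes of the 58 with a single sign on every array in turned values, but it lay close to 0 throughout, with deposited values of 0.02, -0.10, 0.13 and -0.08 and a turned mean of -0.08 ± 0.04, which was 0.0031 after block centring. The turned means of ORC2, ORC3 and ORC5 were 0.20 ± 0.52, -0.05 ± 0.48 and -0.02 ± 0.46. DPB11, a scaffold for starting replication and for activating Mec1, averaged 0.15 ± 0.43 turned and 0.09 ± 0.45 deposited.

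Among the 19 genes of polymerases and the fork, POL3 stood out by a single array. POL3 (YDL102W) encodes the catalytic subunit of polymerase delta and read -4.16, 1.54, 0.18 and 0.25. Its turned mean of 1.44 ± 1.95 (2.71-fold) was the highest of the 58 genes and ranked 14 of 5946 features (unadjusted p = 0.042, limma adjusted p = 1.00). Without array 1 the turned mean was 0.54, and arrays 3 and 4 read no more than 0.25 in size. The deposited mean of POL3 was -0.54 ± 2.49. The other subunits of polymerase delta did not share its pattern. POL31 read 0.65, 0.52, 0.75 and 0.25, positive on all 4 arrays, with a deposited mean of 0.54 ± 0.21 (unadjusted p = 0.035). POL32 read -1.23, -0.08, -0.80 and -0.46, negative on all 4, with a deposited mean of -0.64 ± 0.49 (unadjusted p = 0.037). The limma adjusted p was 0.42 for both, and their turned means were -0.15 ± 0.64 and 0.37 ± 0.78.

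Polymerase alpha and primase likewise split by subunit. POL1, the catalytic subunit, read 1.31, 1.57, -0.61 and -0.45, high on arrays 1 and 2 and below 0 on arrays 3 and 4. POL12, its B subunit, read -1.76, 0.32, -0.49 and -0.80, with a turned mean of 0.44 ± 1.05 and a deposited mean of -0.68 ± 0.86, or -0.32 deposited and 0.0067 turned without array 1. PRI1, the smaller primase subunit that joins the first nucleotides, was positive on all 4 arrays at 0.52, 0.69, 0.45 and 0.23, with a deposited mean of 0.47 ± 0.19. PRI2, the large primase subunit, averaged 0.14 ± 0.11 in deposited signs. In turned signs POL1 averaged 0.11 ± 1.25, PRI1 -0.01 ± 0.58 and PRI2 -0.07 ± 0.18.

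Of polymerase epsilon, which extends the leading strand, the catalytic subunit gene POL2 read -0.76, -1.03, -0.60 and 0.04, with a deposited mean of -0.59 ± 0.46 (unadjusted p = 0.047, limma adjusted p = 0.42). DPB3, a histone-fold subunit, was negative on all 4 arrays as the average of its 2 probes, with a deposited mean of -0.33 ± 0.15. The probes of DPB3 disagreed, with deposited means of -0.71 and 0.05, and the second probe by itself read 0.81 on array 2. DPB4, the partner of DPB3 in the histone-fold pair, lay at -0.0031 ± 0.25. Turned means of these 3 genes ran from 0.01 to 0.09.

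POL30, for the PCNA clamp, was the other gene with a single sign on every array in turned values. It read 0.45, -0.05, 0.25 and -0.62 as deposited, which gives a turned mean of -0.34 ± 0.25, the third lowest of the 58 genes (limma adjusted p = 1.00). Leaving out 1 array moved that mean between -0.44 and -0.25. Its 2 probes had turned means of -0.43 and -0.25. On array 2 they read -0.24 and 0.15, so the second probe by itself did not keep a single sign. In deposited signs POL30 averaged 0.0084 ± 0.47.

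The 5 clamp loader genes RFC1 to RFC5 scattered about 0. Their turned means were -0.15 ± 0.34, 0.06 ± 0.23, -0.0012 ± 0.85, 0.22 ± 0.38 and -0.15 ± 0.52 in numerical order, none above its own SD in size. The largest deposited mean among them was that of RFC5, 0.35 ± 0.38. Replication protein A, which coats single strands, was measured through the smaller subunits. RFA2 was negative on all 4 arrays at -0.87, -1.11, -0.49 and -0.21, with a deposited mean of -0.67 ± 0.40 (unadjusted p = 0.024, limma adjusted p = 0.42). RFA3 read 0.69, 0.88, -0.74 and -1.004, with a deposited mean of -0.05 ± 0.96, so that arrays 1 and 2 stood against arrays 3 and 4. Turned means were 0.01 ± 0.87 for RFA2 and -0.02 ± 0.97 for RFA3. RAD27, the flap endonuclease that trims lagging-strand fragments, read 1.26, 1.06, 0.48 and -0.25, with a deposited mean of 0.64 ± 0.68 and a turned mean of -0.23 ± 0.96.

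Genes of chromosome structure had the highest class median in deposited signs, 0.56 over 5 genes, with an SD of 0.31 between the class medians of the 4 arrays. Of the 5 genes 4 were positive, against 46.5% of all features. SMC3, of the cohesin ring that holds sister chromatids together, had the highest deposited mean of the 58 genes, 1.18 ± 1.54 (2.26-fold, limma adjusted p = 0.44). It read 1.25, 3.32, -0.12 and 0.27, and without array 2 it averaged 0.47. SMC5, of the complex that acts in recombination at stalled forks, was positive on all 4 arrays at 0.79, 1.15, 0.14 and 0.68, with a deposited mean of 0.69 ± 0.42 (unadjusted p = 0.022, limma adjusted p = 0.42). RAD61, which releases cohesin from chromatin, averaged 0.56 ± 0.27 (unadjusted p = 0.033) and TOP1, topoisomerase I, 0.44 ± 0.18, each positive on all 4. CTF8, of an alternative clamp loader for cohesion, averaged -0.23 ± 0.53. In turned signs these genes averaged 0.61 ± 1.93 for SMC3, 0.22 ± 0.86 for SMC5, 0.15 ± 0.68 for RAD61, 0.10 ± 0.53 for TOP1 and -0.15 ± 0.57 for CTF8.

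Of the 3 genes with other roles, EXO84 read -0.35, 3.45, 0.16 and -0.14. Its turned mean of 0.88 ± 1.73 and deposited mean of 0.78 ± 1.79 both rest on array 2, and they were 0.02 and -0.11 without it. MCM1 was positive on all 4 arrays with a deposited mean of 0.52 ± 0.35 and a turned mean of -0.04 ± 0.69. MCM22 averaged -0.07 ± 0.21 turned and -0.05 ± 0.22 deposited.

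The number of genes with a single sign over 4 arrays depended on the reading, for the 58 genes and for all features. In turned signs 2 of 58 genes (3.45%) did so, both negative, against 6.98% of all features (3.58% negative and 3.4% positive). In deposited signs 17 of 58 (29.3%) did so, against 24.8% of all features. Of these, 10 were positive, against 12.4% of all features, and 7 negative, against 12.3%. After block centring the deposited count was 23 of 58 (39.7%), against 32% of all features. Each of these shares of the 58 genes lies near its background. An unadjusted p below 0.05 in deposited signs was reached by MCM2, MCM7, NTG2, POL31, RAD61 and SMC5 on the positive side (6.04% of all features) and by RAD26, RFA2, POL32 and POL2 on the negative side (5.65% of all features). Without array 1 only 2 genes of the 58 reached it, and without arrays 2, 3 and 4 the numbers were 4, 8 and 9. Over all 5946 features the numbers were 344, 562, 548 and 641 without arrays 1, 2, 3 and 4.

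**Figure D3:**
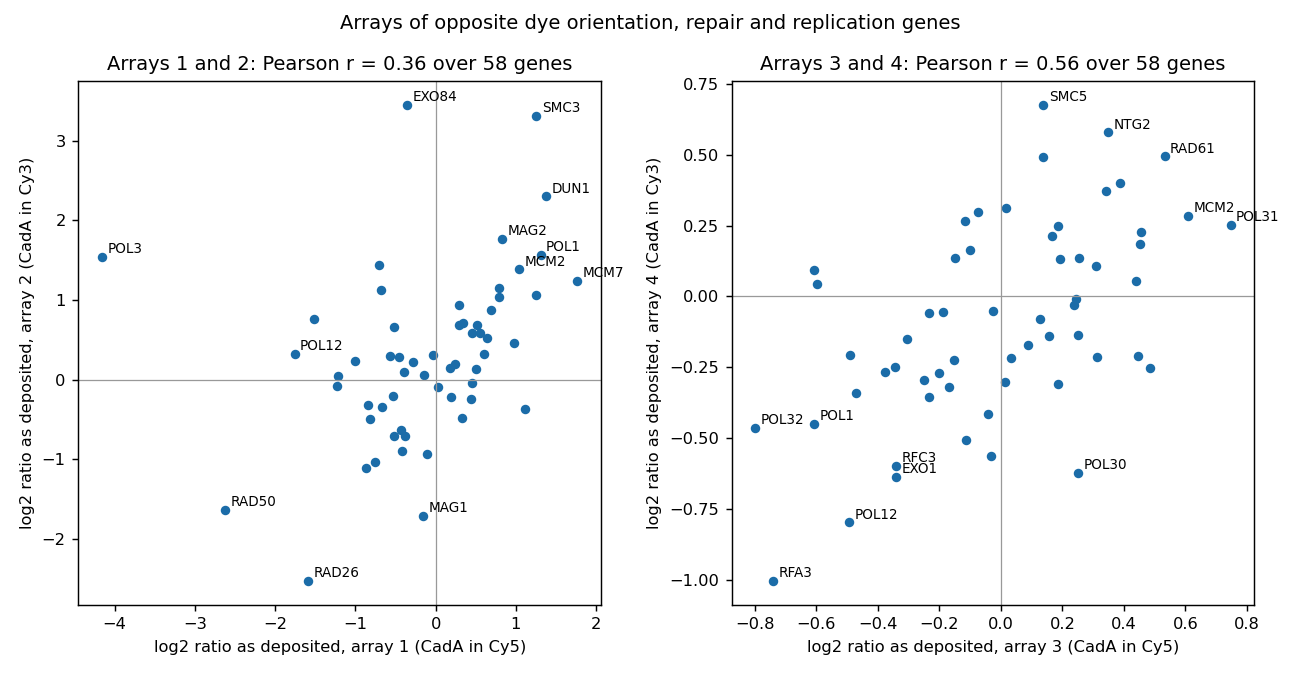
Deposited log2 ratios of the 58 genes on arrays 1 and 2 (left) and on arrays 3 and 4 (right), with the array with CadA in Cy5 on the horizontal axis. Each point is a gene. Points run from lower left to upper right in both panels, with Pearson r of 0.36 and 0.56.

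Arrays of opposite dye orientation varied in the same direction over the 58 genes when signs were left as deposited. Pearson r across genes was 0.36 for arrays 1 and 2 and 0.56 for arrays 3 and 4, against 0.34 and 0.22 over all features. It was 0.11 for arrays 1 and 4 and 0.12 for arrays 2 and 3, against 0.07 and 0.0020 over all features. The pairs of 1 orientation stood at 0.15 for arrays 1 and 3 and 0.03 for arrays 2 and 4, against 0.17 and -0.02 over all features. After block centring all 6 pairs were positive over the 58 genes, as they were before it. The r of arrays 1 and 2 was 0.46 over the 58 genes and 0.36 over all features, and that of arrays 3 and 4 was 0.46 over the 58 genes and -0.02 over all features. For arrays 1 and 4 it was 0.21 over the 58 genes and 0.18 over all features, and for arrays 2 and 3 it was 0.58 and 0.27. The pairs of 1 orientation stood at 0.26 over the 58 genes and 0.34 over all features for arrays 1 and 3, and at 0.55 and 0.23 for arrays 2 and 4. Genes are not independent replicates, the probes of an array share its hybridisation and print blocks, and these values are given as a description. Strain and dye cannot be told apart here, since the direction of the table is unknown.

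Some genes set arrays 1 and 2 against arrays 3 and 4. EXO1, POL1, RFA3 and RFC3 were positive on the first pair and negative on the second in deposited signs, 4 of 58 genes against 8.07% of all features. CTF8, PHR1 and RAD50 did the opposite, 3 of 58 against 9.28% of all features. Leaving out 1 array changed the sign of the mean for 37 of the 58 genes in turned signs and for 20 in deposited signs. Counting also means that moved by over 1.5 times, it was 56 of 58 in turned signs and 40 of 58 in deposited signs. The SD over arrays exceeded the mean in size for 56 of 58 genes in turned signs and for 38 in deposited signs. The counts for left-out arrays and for SDs were made for the 58 genes only, with no share over all features beside them. Whether such changes are particular to these genes was not tested.

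**Figure D4:**
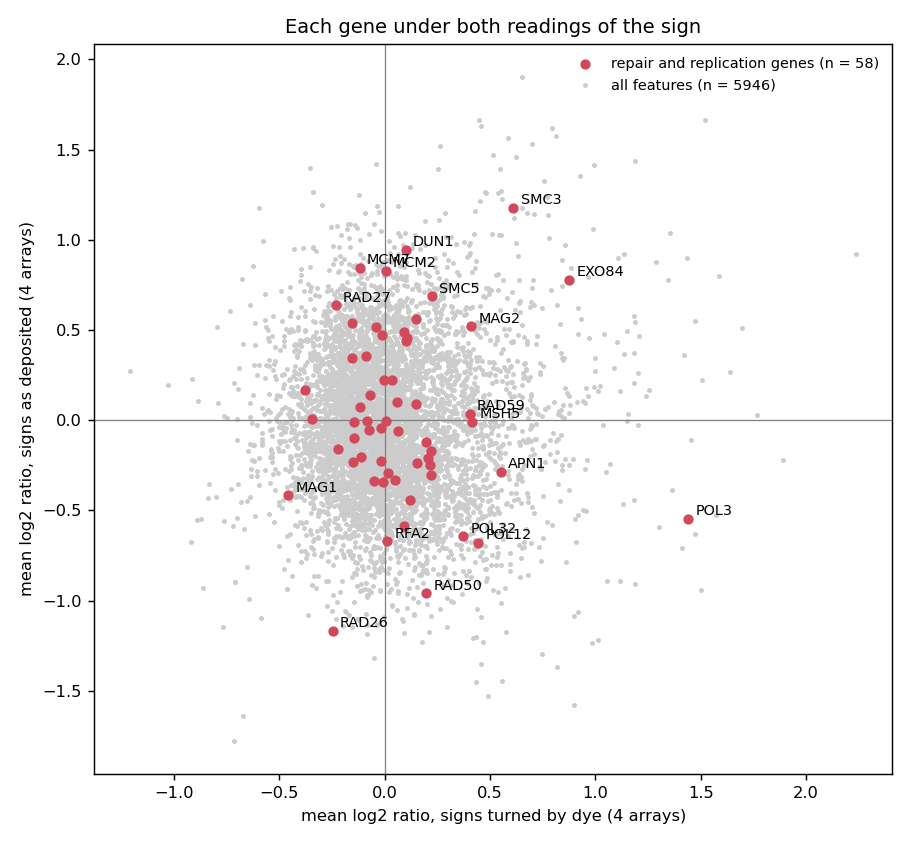
Mean log2 ratio over 4 arrays in turned signs (horizontal axis) against the same in deposited signs (vertical axis), for the 58 genes (red, those with large means named) and all 5946 features (grey). The median absolute mean of the 58 genes was 0.32 on the vertical axis and 0.15 on the horizontal one, and POL3 at 1.44 is the point farthest to the right among them.

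Repeat probes were present for 4 of the 58 genes. Those of POL30 had the same sign in turned means, as given above, and so had those of RFC1, at -0.21 and -0.08. The turned means of the first and second probes differed in sign for DPB3, at -0.16 and 0.26, and for REV1, at -0.14 and 0.18. In deposited signs the probes of DPB3 averaged -0.71 and 0.05, mainly through array 2, where they read -1.22 and 0.81. For both genes the gap between probes in turned signs was larger than the mean of the gene, 0.02 for REV1 and 0.05 for DPB3.

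In the R64 gene order 4 pairs of the 58 genes lie side by side. POL3 and DUN1 are neighbours, and they read -4.16 and 1.38 on array 1 but 1.54 and 2.30 on array 2. APN1 and RAD27 are neighbours with turned means of 0.55 and -0.23. RFC5 and POL30 had turned means of -0.15 and -0.34, and POL2 and ORC5 deposited means of -0.59 and -0.22. The first and second of these pairs lay on opposite sides of 0 in deposited means, and the other two on the same side.

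Related genes that the name rule does not reach were taken from lists of checkpoint, replication and repair partners. None of them passed the threshold in either reading. Of 13 genes of ribonucleotide supply and damage response, 3 were measured. In turned signs 2 means lay above 0, against 47.4% of all features. In deposited signs 2 lay above 0, against 46.5%, but not the same 2 genes. RNR4, for a small subunit of ribonucleotide reductase, was positive on all 4 arrays at 0.75, 0.59, 0.61 and 0.49, with a deposited mean of 0.61 ± 0.11 (limma adjusted p = 0.42) and a turned mean of -0.07 ± 0.71. RNR2, for the other small subunit, read 1.97, 2.16, -0.67 and 0.0015, with means of 0.21 ± 1.71 turned and 0.86 ± 1.41 deposited. WTM1 was negative on all 4 arrays, at -0.46, -0.13, -0.25 and -0.09. Its means were -0.23 ± 0.17 deposited and 0.12 ± 0.28 turned.

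Of 10 checkpoint partners 5 were measured. In turned signs 4 means lay below 0, against 52.6% of all features, and in deposited signs 4, against 53.5%. They were not the same 4 genes, since CHK1 and CSM3 changed sides. CHK1 averaged -0.21 ± 0.53 turned and 0.44 ± 0.27 deposited. DDC1, a subunit of the same clamp as Rad17, read -0.59, -2.99, -0.11 and -0.29, with a turned mean of -0.64 ± 1.60, or 0.14 without array 2. Its deposited mean was -0.99 ± 1.34, or -0.33 without array 2. CSM3, which travels with the fork, averaged 0.36 ± 1.14 in turned signs and -0.69 ± 0.92 in deposited signs. Of 18 replication partners 13 were measured, with 10 turned means below 0 (against 52.6% of all features) and a median of -0.20. In deposited signs 6 of the 13 lay below 0, against 53.5% of all features, and the median was 0.19. TAH11, the yeast Cdt1 that loads the MCM ring, averaged -0.35 ± 1.14 turned and 0.72 ± 0.88 deposited. CDC45, of the active helicase, averaged 0.22 ± 0.81 turned and 0.44 ± 0.68 deposited.

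Of 22 break repair partners 10 were measured. In turned signs 7 means lay below 0, against 52.6% of all features. In deposited signs 7 lay below 0, against 53.5%, but these were not all the same genes. DNL4, the ligase of end joining, averaged -0.35 ± 0.45, and SRS2, a helicase that restrains recombination, 0.37 ± 0.46 in turned signs. In deposited signs DNL4 averaged 0.33 ± 0.47 and SRS2 -0.06 ± 0.63. LIF1, the partner of the ligase Dnl4, is named after its values were seen: it read -1.32, -1.40, -1.30 and -0.17, negative on all 4 arrays, with a deposited mean of -1.05 ± 0.59 (unadjusted p = 0.0058, limma adjusted p = 0.42) and a turned mean of 0.26 ± 1.31. Of 17 partners of excision repair and damage tolerance 6 were measured. In turned means 3 lay on each side of 0, against 52.6% of all features below it. In deposited means 2 lay above 0 and 4 below it, against 53.5% of all features below it. SSL2, a helicase of TFIIH, averaged 0.31 ± 0.59 turned and -0.11 ± 0.68 deposited, and DDI1 -0.11 ± 0.06 turned and 0.0021 ± 0.14 deposited. Of 17 cyclins, their regulators and histones of S phase 8 were measured, 6 of them above 0 in turned means, against 47.4% of all features, with a median of 0.07. In deposited signs it was 6 of the 8 below 0, against 53.5% of all features, with a median of -0.19. MBP1, the DNA-binding partner of Swi6 at replication genes, averaged 0.39 ± 0.74 turned, and SWE1, the kinase that holds back mitosis, -0.11 ± 0.69 turned and 0.57 ± 0.24 deposited.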

How the data were processed

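The authors deposited 1 normalized log ratio per probe and array, taken here as a log2 ratio because the submitters' processing notes name limma 3.2.1, which works on that scale. Its background correction, normalization, numerator and base are not stated, and no spot signal was used, so dim spots could not be filtered. Of 6216 probes, 6162 had values on all 4 arrays. By the platform annotation 3344 had 1 symbol, 387 several and 2485 none here. Symbols were updated through gene identifiers to R64, where 3343 of 3344 matched. All 4 columns belong to a sample, and 0 were left unused. Probes of a gene were averaged. Each feature's mean over 4 arrays was compared with 0 by limma 3.58.1 under R 4.3.3 (lmFit, eBayes, two-sided) and adjusted by Benjamini-Hochberg over 5946 features, with signs turned by dye or as deposited. The fit was tested on simulated data. Means are given with the SD over 4 arrays, whose number limits the precision.

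Genes named were those with 1 sign on all arrays in turned values, core genes of each step, the extremes of each class and of each related list, and then every other member. CHK1, LIF1 and WTM1, of the related lists, were added after their values were seen and are not among the 70 named genes below. The members and lists were chosen with earlier results of these data known, and no list was tested as a set. Promoter sequences were not used here. Alternatives were signs as deposited, the first probe of a gene, arrays scaled to 1 spread, print blocks (48) centred, array weights, a dye coefficient, ordinary statistics and leaving out each array. Arrays 3 and 4 alone were added after seeing the data.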

Additional observations from a re-analysis of the deposited data

Results flagged for a closer look

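A single array stood apart from the other 3 for some genes, by the gap from the farthest array to its nearest neighbour as a share of the range over 4 arrays, against Dixon's critical value for 4 samples. Chance alone would mark about 1 in 20 genes, and 58 genes were examined under each reading. In turned signs the gap was 0.925 for RAD54, with array 4 apart, 0.871 for RAD6, with array 1 apart, and 0.859 for EXO84, with array 2 apart. In deposited signs it was 0.856 for RAD54, with array 2 apart, 0.866 for RFC1, with array 1 apart, 0.902 for TOP1, with array 2 apart, and 0.867 for EXO84, with array 2 apart. RAD54, RAD6, RFC1 and TOP1 read 0.71 or less in size on every array, while EXO84 read 3.45 on array 2 and no more than 0.35 in size on the others.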

How the results depend on the processing

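No gene of the 58 passed the adjusted threshold in any fit that was run, and 0 of 420 alternative values of the 70 named genes did, counting all but those without 1 array. Over all features limma called 0 in turned signs with 4 arrays, with 112 at an unadjusted p below 0.05, and ordinary statistics per feature called 0, with 147. It called 4 with array weights, none of them among the 58, and between 0 and 1 without a single array, the 1 without array 1. On arrays 3 and 4 alone, a setting chosen after seeing the data, it called 10, none of them among the 58, from 2 values per feature. In deposited signs it called 0, with 695 at an unadjusted p below 0.05, and 0 without any single array. The same 54 probes had no value on any array, so a minimum of 3 or of 4 arrays kept the same features. The median of the 58 turned means stayed between -0.040 and 0.055 without single arrays. In signs as deposited the class medians moved by more than the spread between arrays to -0.032 for post-replication repair, -0.32 for the checkpoint genes and 0.52 for the 3 genes with other roles. In turned signs without single arrays the first ran between 0.015 and 0.14 and the last between -0.12 and 0.27. No paired analysis was possible because all 4 arrays form 1 group, each holding both strains. The table has no signal, so what dim spots contribute was not tested. The causes of the changes listed next were not tested either.

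Turned means changed sign as follows. In signs as deposited they were 0.0084 for POL30, -0.0090 for MSH5, -0.24 for MLH3, -0.28 for APN1, -0.44 for MEC1, -0.67 for RFA2, 0.85 for MCM7, -0.12 for ORC2, -0.060 for RFC2, 0.22 for RFC3, -0.25 for RFC4, 0.35 for RFC5, -0.21 for PHR1, 0.17 for RAD55, -0.17 for RAD5, -0.29 for REV1, -0.30 for RAD17, -0.54 for POL3, 0.61 for RNR4, -0.69 for CSM3, 0.72 for TAH11, -0.056 for SRS2, 0.33 for DNL4, -0.11 for SSL2, 0.0021 for DDI1, 0.57 for SWE1, 0.36 for RAD23, 0.075 for RAD54, -0.96 for RAD50, -0.68 for POL12, 0.47 for PRI1, 0.14 for PRI2, -0.59 for POL2, -0.33 for DPB3, -0.0031 for DPB4, 0.54 for POL31, -0.64 for POL32, 0.64 for RAD27 and 0.52 for MCM1. With array weights they were 0.098 for RAD53, -0.17 for DUN1, 0.11 for RFA3, -0.24 for MCM2, 0.062 for ORC3, 0.024 for RFC1, -0.0087 for RFC2, 0.018 for RFC3, 0.014 for RAD26, -0.031 for RAD5, -0.13 for CDC45, -0.033 for NTG2, 0.031 for RAD7, -0.057 for REV3, -0.071 for DPB11, -0.045 for DPB4, -0.088 for RAD61 and -0.051 for TOP1. After print blocks were centred they were 0.0031 for ORC4, 0.039 for RAD53, -0.11 for DUN1, -0.0033 for ORC2, 0.011 for ORC3, -0.082 for RAD59, 0.0092 for CTF8, -0.087 for RNR2, 0.062 for SWE1, 0.046 for RAD7, -0.016 for POL1, 0.034 for PRI1, -0.11 for POL32 and 0.0088 for MCM1. With arrays scaled to 1 spread they were 0.038 for RAD53, -0.050 for DUN1, -0.079 for MCM2, -0.028 for REV3, -0.051 for DPB4 and 0.019 for MCM1. With the first probe of a gene they were -0.14 for REV1 and -0.16 for DPB3. Without single arrays the lowest and highest were -0.31 to 0.018 for EXO1, -0.15 to 0.20 for RAD53, -0.11 to 0.33 for MEC1, -0.63 to 0.59 for DUN1, -0.28 to 0.39 for RFA2, -0.32 to 0.31 for RFA3, -0.46 to 0.35 for MCM2, -0.57 to 0.43 for MCM7, -0.19 to 0.17 for ORC3, -0.24 to 0.092 for ORC5, -0.0089 to 0.16 for RFC2, -0.35 to 0.26 for RFC3, -0.0099 to 0.38 for PHR1, -0.86 to 0.51 for RAD26, -0.11 to 0.44 for RAD5, -0.15 to 0.26 for REV1, -0.044 to 0.43 for RAD17, -0.29 to 1.23 for SMC3, -0.34 to 0.10 for CTF8, -0.15 to 0.0048 for MCM22, -0.43 to 0.94 for RNR2, -0.29 to 0.16 for RNR4, -0.20 to 0.59 for CSM3, -1.05 to 0.14 for DDC1, -0.16 to 0.48 for CDC45, -0.78 to 0.14 for TAH11, -0.36 to 0.13 for SWE1, -0.042 to 0.82 for MAG2, -0.073 to 0.27 for NTG2, -0.25 to 0.16 for RAD7, -0.25 to 0.050 for RAD23, -0.61 to 0.81 for RAD50, -0.18 to 0.14 for REV3, -0.38 to 0.58 for POL1, -0.25 to 0.15 for PRI1, -0.13 to 0.47 for POL2, -0.11 to 0.19 for DPB3, -0.093 to 0.11 for DPB4, -0.38 to 0.043 for POL31, -0.66 to 0.11 for RAD27, -0.083 to 0.56 for SMC5, -0.11 to 0.38 for RAD61, -0.10 to 0.25 for TOP1 and -0.22 to 0.27 for MCM1.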
